A study of Homo sapiens with 10 samples.

Results

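Gene expression after 12 h of dasatinib was compared with that of untreated cells, one 12 h library at a time, to find which changes were shared by both 12 h libraries. The comparison used 4 of the 10 libraries of the series, the 2 of the 12 h group and the 2 of the 0 h group, chosen by their time labels and read as raw counts per gene. All 10 libraries were made from MDA-MB-231, a human basal B breast cancer cell line of wild-type genotype, and the remaining 6 were taken after 6, 24 and 48 h of the drug. The 12 h cells had received 100 nM dasatinib, a dose given by the study's description of the experiment and not by the sample labels. The 0 h samples are titled sham, and they served as the untreated group, although the drug appears in their treatment field as well. No untreated cells collected at 12 h are among the samples, so each difference from 0 h also holds 12 h in culture. The replicates are labelled as biological, they come from 1 cell line, and the p-values measure only the spread between these samples.

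Dasatinib is an inhibitor of the SRC family and of ABL kinases, which pass signals from integrins and growth factor receptors to the actin cytoskeleton and to the ERK and YAP pathways. SRC activity at focal adhesions favours the entry of the coactivators YAP and TAZ into the nucleus, where they act through the DNA-binding TEAD proteins on genes such as *CCN1*, *CCN2* and *ANKRD1*. Basal B lines are mesenchymal, with much vimentin and CD44 and little or no estrogen receptor.

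The cells carried the main markers of their label, beside some luminal keratins. *KRT8* lay between 296 and 492 CPM and *KRT18* between 189 and 295 CPM in the 4 libraries compared. The 21 luminal and milk markers summed to between 853 and 1220 CPM and the 11 basal B markers to between 4180 and 5660 CPM. The basal B marker *SNAI2* lay low, between 6.02 and 10.1 CPM. *VIM* lay between 983 and 1393 CPM (counts-per-million units, scaled by the trimmed mean of M values, TMM) and *CD44* between 341 and 465 CPM in the 4 libraries, while *PGR* and *GRHL2* had no count and *ESR1* stayed at or under 0.523 CPM. The 13 haematopoietic markers summed to between 0.476 and 1.25 CPM, with the defining genes *CD3E*, *HBA1* and *HBA2* at 0 in every one of the 4 libraries. The 12 endothelial and fibroblast markers summed to 17.8 and 18.3 CPM at 0 h and to 34.1 and 28.1 CPM at 12 h, with *LUM* at 0, and most of that sum came from *COL1A1* and *PDGFRB*.

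Replicate 1 of the 12 h group was unlike the rest. Its log2 CPM values correlated with those of its nearest library at 0.945, whereas the remaining libraries reached 0.977 to 0.984. It had 40942913 counts in total against 45148693 in 12 h replicate 2 and 43714267 and 45523254 at 0 h, so its depth was close to theirs. It held a count for 16275 genes, while the others held one for 17031 to 18241. Mitochondrially encoded mRNA took 7.94% of its counts against 5.42% in 12 h replicate 2 and 5.07% and 5.72% at 0 h, and ribosomal protein mRNA took 4.24% against 7.2% in 12 h replicate 2 and 6.71% in each 0 h library. Over the 15727 genes that passed edgeR's filter on low counts, the log2 difference between replicates had an SD of 1.18 at 12 h and of 0.595 to 0.757 in the other groups. Among genes whose log2 CPM averaged at least 2 it was 0.583 at 12 h and 0.173 to 0.19 elsewhere. The results are therefore given for each 12 h library separately.

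Both 12 h libraries shared the same direction of change in 1602 genes, or 10.2% of the genes tested. To obtain this count, each 12 h library was set against the 0 h libraries in edgeR's quasi-likelihood test with Benjamini-Hochberg adjustment and a threshold of 0.05, with each 12 h library as a group of its own whose spread was assumed to be that of the other groups. The 12 h pair did not meet this assumption, with an SD of 0.583 against 0.173 to 0.19 elsewhere at an average log2 CPM of at least 2. The calls for single 12 h libraries may therefore be too many. In replicate 1, 3374 genes were higher than at 0 h (21.5%) and 4168 were lower (26.5%). In replicate 2, 1346 were higher (8.56%) and 1480 were lower (9.41%). Of these, 777 were higher in both (4.94%) and 825 were lower in both (5.25%), which amounts to 21.2% of the 7542 calls of replicate 1 and 56.7% of the 2826 calls of replicate 2. The 2 libraries called 255 genes in opposite directions (1.62%), which is 3.38% of the calls of replicate 1 and 9.02% of those of replicate 2. Both comparisons used the same 0 h libraries, so a 0 h library that deviates moves both and part of the shared calls can arise from it.

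**Figure D1:**
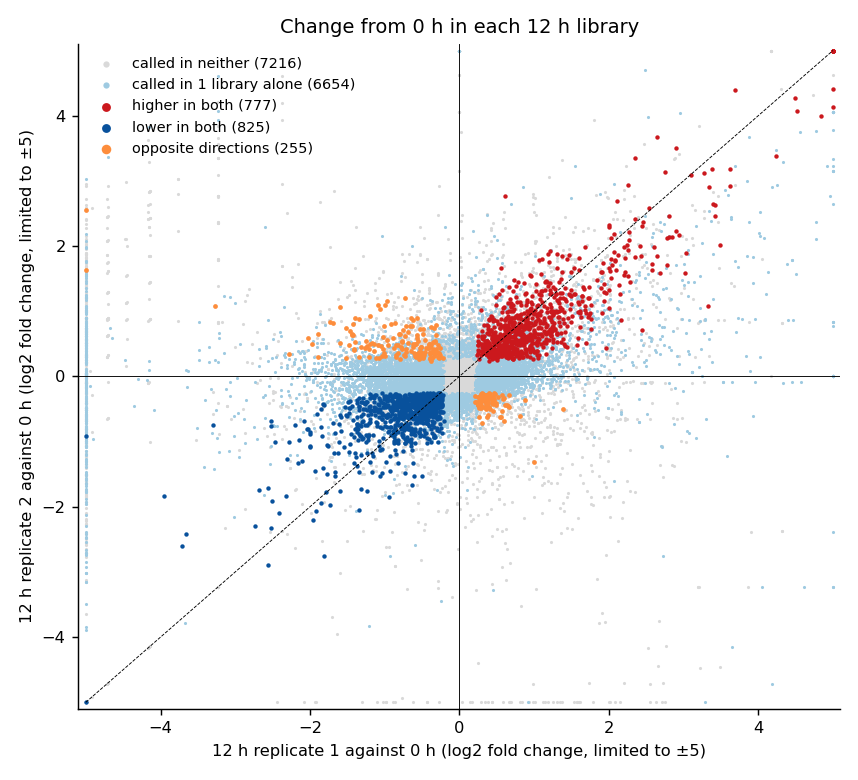
Log2 fold change against 0 h of each of the 15727 genes tested, in 12 h replicate 1 (horizontal) and 12 h replicate 2 (vertical), limited to ±5, with the broken line where both are equal. The 777 genes higher in both (red) and the 825 lower in both (dark blue) lie in opposite corners, the 6654 called in 1 library alone (light blue) spread wider along the horizontal axis, and the 255 with opposite directions are in orange. Points on the left edge are genes with few or no counts in replicate 1.

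When the 12 h libraries were instead treated as 1 group of 2, in 1 fit over the 5 times, 618 genes were higher (3.93%) and 506 were lower (3.22%) at 12 h (edgeR's quasi-likelihood test, adjusted p under 0.05). Of these 1124 genes, 1094 were among those called the same way in each library (593 higher and 501 lower), and 30 were not. Without 12 h replicate 1 the counts were 1368 and 1425, and without 12 h replicate 2 they were 3386 and 4173, so the choice of library moved the count by more than 1.5 times in both cases. Contrasts that shared no library are given as a description. Over all genes tested, 526 genes rose and 273 fell by more than 1 on the log2 scale in both pairs of same-numbered libraries, and 446 went opposite ways. With the pairs crossed these counts were 490, 275 and 513. Shared changes made up 39.8% of those of the replicate 2 pair over all genes and 52.3% at an average log2 CPM of at least 2. In the replicate 1 pair their share went from 21.6% to 11.7%. Among the 10767 genes whose log2 CPM averaged at least 2, replicate 1 at 12 h minus replicate 1 at 0 h passed 1 on the log2 scale in either direction for 1053 genes, and the pair of replicates 2 did so for 235. Of these, 75 rose past that limit in both pairs, 48 fell past it in both and 2 went opposite ways. With the pairs crossed the counts were 78, 47 and 5.

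A gene is said below to agree when it passed in each 12 h library with the same sign. Its fold change over both libraries and its standard error come from the fit with 1 group a time, with the adjusted p of edgeR's quasi-likelihood test. All levels are TMM-scaled CPM, in the order replicate 1, replicate 2. Over all genes tested, 4.94% agreed in rising and 5.25% in falling, which is the background for the counts of list members below. In RNA from whole cultures, a change in the share of cells in some state cannot be told apart from a change in RNA per cell.

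The 10 largest agreeing increases held genes of kinase signalling, prostaglandin synthesis and secreted matrix proteins. *MAP2K6*, a kinase that activates p38, measured 2.24 and 2.02 CPM at 0 h and 22.3 and 19.4 CPM at 12 h. Both 12 h values lay far above both 0 h values and close to each other, with a log2 fold change of 3.29 ± 0.17 (SE, edgeR adjusted p = 2.23e-05). *PTGES*, the inducible prostaglandin E synthase, went from 14.9 and 13.9 CPM to 73.4 and 146 CPM, with a log2 fold change of 2.93 ± 0.27 (edgeR adjusted p = 0.000375). Here the size differed between the 12 h libraries, by -0.99 on the log2 scale for replicate 1 minus replicate 2, although both rose. With each library's trend by gene length and GC content removed, this difference was -0.24, so most of it depended on that step. *DDIT4*, which restrains mTORC1, went from 15.2 and 18.5 CPM to 72.6 and 108 CPM. *CEMIP*, a hyaluronan-degrading protein, went from 11.4 and 14.7 CPM to 71.4 and 64.8 CPM, a log2 fold change of 2.38 ± 0.14 (edgeR adjusted p = 4.75e-05). For *CEMIP* the 12 h values lay close to each other.

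The nuclear receptor *NR4A2* measured 2.39 and 2.98 CPM at 0 h and 13.7 and 14.4 CPM at 12 h. *DMBT1*, a secreted scavenger receptor, measured 2.39 and 2.66 CPM and then 13.9 and 13.04 CPM. *IER5L*, a relative of an immediate early gene, measured 19.2 and 12.0 CPM and then 65.4 and 70.9 CPM. For these 3 genes and for *MAP2K6* and *CEMIP* the difference between the 12 h libraries did not pass. The last 3 of the 10 were higher in replicate 1 than in replicate 2. *MUC5AC*, a gel-forming mucin, rose from 58.3 and 45.6 CPM to 355 and 169 CPM, and *DAAM2*, a formin that regulates actin, from 1.86 and 2.25 CPM to 15.8 and 9.25 CPM. *LOC105371414*, an uncharacterised locus, rose from 2.17 and 3.56 CPM to 28.9 and 6.05 CPM, a log2 fold change of 3.33 in replicate 1 and 1.08 in replicate 2, so most of its mean came from the library that stood apart. It no longer passed when either 0 h library was left out (edgeR adjusted p = 0.22 and 0.124) or any library of 6, 24 or 48 h (0.0518 to 0.058).

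The 10 largest agreeing decreases held 5 targets of YAP and TEAD. *EDN1*, which encodes the vasoconstrictor endothelin 1, measured 59.7 and 60.8 CPM at 0 h and 4.59 and 9.93 CPM at 12 h, a log2 fold change of -3.05 ± 0.29 (edgeR adjusted p = 0.000427). *ANKRD1*, a nuclear ankyrin repeat protein, fell from 462 and 496 CPM to 83.4 and 95.5 CPM, by 2.42 ± 0.11 on the log2 scale (edgeR adjusted p = 1.67e-05). *F3*, tissue factor of the coagulation cascade, fell from 626 and 589 CPM to 113 and 142 CPM. In all 3 genes both 12 h values lay far below both 0 h values. *CCN2* fell from 381 and 358 CPM to 64.8 and 98.0 CPM, and *CCN1* from 1552 and 1667 CPM to 251 and 481 CPM, both secreted matricellular proteins. The fall of *CCN1* was larger in replicate 1 by 0.94 on the log2 scale (edgeR adjusted p = 2.88e-07), and that of *ANKRD1* did not differ between the libraries (edgeR adjusted p = 0.137).

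**Figure D2:**
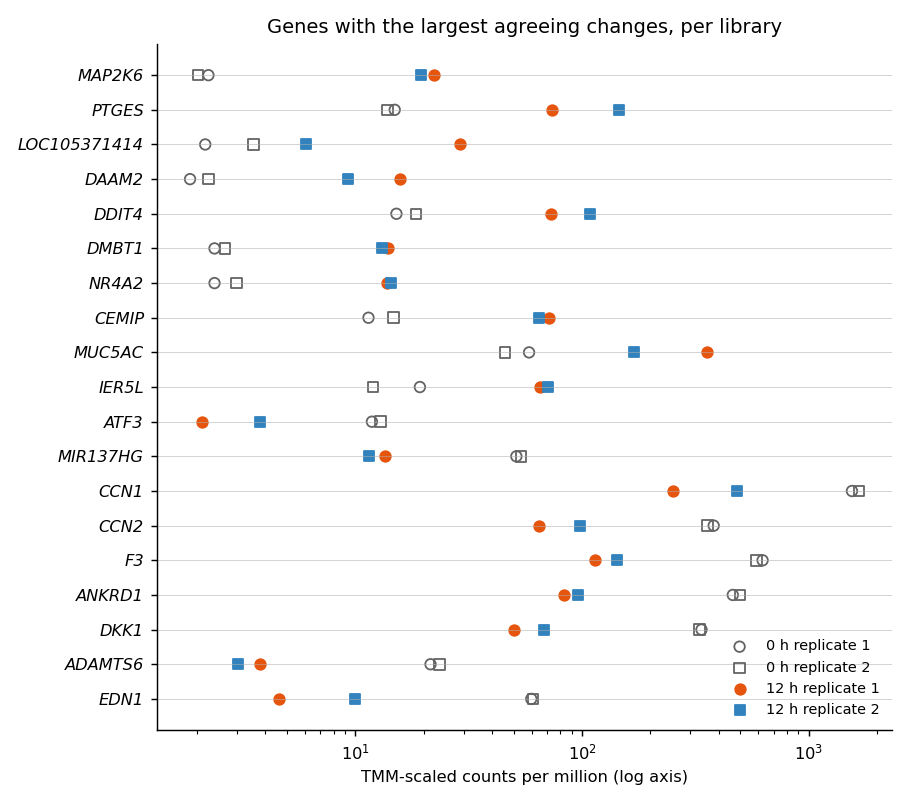
TMM-scaled CPM, on a log axis, of the 10 largest agreeing increases (top) and 9 of the 10 largest agreeing decreases (bottom) in the 2 libraries of 0 h (open grey) and the 2 of 12 h (filled; orange circle replicate 1, blue square replicate 2). In every one of the 19 genes shown both 12 h libraries lie on the same side of both 0 h libraries, which the choice of agreeing genes favours. The 12 h libraries lie farthest apart in *LOC105371414*, at 28.9 and 6.05 CPM.

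The promoters of the 3 YAP and TEAD targets with the largest agreeing fall are given here because these genes fell together, with matches to the TEAD core motif GGAATG or its complement CATTCC in capitals. Each runs from 250 bases before to 50 bases after the start of the RefSeq transcript, on the strand of the gene, in build GRCh38.p14. The windows lie at chr6:12287769-12288068 (plus strand) for *EDN1*, chr10:90921038-90921337 (minus strand) for *ANKRD1* and chr1:94541710-94542009 (minus strand) for *F3*.
EDN1: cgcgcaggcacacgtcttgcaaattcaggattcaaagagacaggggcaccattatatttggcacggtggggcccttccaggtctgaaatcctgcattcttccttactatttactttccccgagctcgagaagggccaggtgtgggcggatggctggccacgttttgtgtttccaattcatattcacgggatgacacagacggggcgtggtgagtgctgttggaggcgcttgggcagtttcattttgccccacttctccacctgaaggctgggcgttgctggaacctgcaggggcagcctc
ANKRD1: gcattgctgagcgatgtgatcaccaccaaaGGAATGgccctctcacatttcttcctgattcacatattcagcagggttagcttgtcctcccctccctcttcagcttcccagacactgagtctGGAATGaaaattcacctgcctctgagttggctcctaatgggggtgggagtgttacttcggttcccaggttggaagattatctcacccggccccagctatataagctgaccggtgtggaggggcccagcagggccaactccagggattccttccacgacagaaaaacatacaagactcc
F3: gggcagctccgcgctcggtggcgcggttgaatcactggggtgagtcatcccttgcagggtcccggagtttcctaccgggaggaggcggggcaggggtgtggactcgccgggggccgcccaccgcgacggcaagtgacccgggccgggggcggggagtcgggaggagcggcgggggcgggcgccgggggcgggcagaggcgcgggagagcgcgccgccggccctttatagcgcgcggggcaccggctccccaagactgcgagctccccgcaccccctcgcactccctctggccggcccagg
The window of *ANKRD1* holds 2 matches, and those of *EDN1* and *F3* hold none, which says only that these letters are not in these windows. Of the 27305 promoters of this length, 3836 (14%) hold the motif on either strand. Among the genes tested, 1376 of the 12160 promoters at hand hold it (11.3%). The motif was found in 7 of the 19 promoters at hand for the 26 YAP and TEAD targets (36.8%), and in 4 of the 11 for those lower in both libraries (36.4%). For all genes lower in both it was found in 90 of 682 (13.2%), and for those higher in both in 54 of 606 (8.91%).

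Of the rest of these decreases, 4 are described here and were of several kinds. *ADAMTS6*, a matrix metalloproteinase of the ADAMTS family, fell from 21.4 and 23.5 CPM to 3.81 and 3.02 CPM, and *DKK1*, a secreted Wnt antagonist, from 336 and 329.7 CPM to 49.9 and 68.0 CPM. *ATF3*, a stress-responsive transcription factor, fell from 11.8 and 12.9 CPM to 2.09 and 3.79 CPM and *MIR137HG*, the host transcript of a microRNA, from 51.3 and 53.8 CPM to 13.5 and 11.4 CPM. Their log2 fold changes ran from -2.72 for *ADAMTS6* to -2.07 for *ATF3*, and the fall was larger in replicate 1 for *DKK1* and *ATF3*. With the length and GC trend removed, replicate 1 minus replicate 2 went from -0.44 to -0.03 for *DKK1* and from -0.86 to -0.62 for *ATF3*. In edgeR on the 4 libraries of 0 h and 12 h alone, none of the 20 genes with the largest agreeing changes passed (highest adjusted p = 0.361), although all 20 had an unadjusted p under 0.05 there and all 20 passed by DESeq2 on the same libraries.

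Of the 26 YAP and TEAD targets tested, 15 agreed in falling and none agreed in rising, and 12 were lower over both libraries as 1 group. The median log2 fold change of the list was -0.47 in replicate 1 and -0.67 in replicate 2, beside -0.05 and 0.004 over all genes tested. The libraries were less alike in the rest of the list: 5 members were higher in replicate 1 and none was higher in replicate 2, where 18 were lower. With each library's trend by gene length and GC content removed, 16 agreed in falling. At an unadjusted p under 0.05 none agreed in rising either and 1 was higher in replicate 2, and by DESeq2 there was none of either kind.

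ERK targets and immediate early genes moved in both directions. Of 31 ERK targets and feedback genes, 8 agreed in falling and 3 in rising, and of 25 immediate early genes 10 agreed in falling and 3 in rising. *EGR1*, an early growth response factor, fell from 181 and 170.4 CPM to 55.5 and 60.7 CPM, a log2 fold change of -1.60 ± 0.12 (edgeR adjusted p = 0.000163). *FOSL1*, an AP-1 subunit, fell from 372 and 355 CPM to 118 and 162 CPM, and *HBEGF*, a ligand of the EGF receptor, from 154 and 156 CPM to 45.7 and 73.8 CPM. *KLF6* fell from 195 and 196 CPM to 121 and 112 CPM. The difference between the 12 h libraries did not pass for *EGR1* and *KLF6*.

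The increases in the same lists included the ERK phosphatase *DUSP4*, at 245 and 247 CPM at 0 h and 577 and 493 CPM at 12 h, a log2 fold change of 1.12 ± 0.12 (edgeR adjusted p = 0.00114). *ETV1*, an ETS factor, rose from 80.8 and 77.3 CPM to 171 and 122 CPM. The AP-1 subunit *FOSL2* rose from 212 and 235 CPM to 505 and 442 CPM, and the nuclear receptor *NR4A1* from 3.03 and 3.14 CPM to 13.2 and 9.55 CPM. *SPRY4*, a feedback inhibitor of receptor signalling, measured 325 and 327 CPM at 0 h and 429 and 385 CPM at 12 h, which passed in each library but not over both as 1 group (edgeR adjusted p = 0.106), nor in replicate 2 with the length and GC trend removed (edgeR adjusted p = 0.0671). *DUSP6* and *DUSP7*, ERK phosphatases of the same list named here after their values were seen, were called in opposite directions by the 2 libraries, as was *PHLDA2*. Of 25 SRF and MRTF targets, 4 were lower in both and none was higher in both, and among the former was the muscle and focal adhesion protein *FHL2* at 45.9 and 48.0 CPM and then 27.3 CPM in each 12 h library. Neither an unadjusted p under 0.05 nor DESeq2 gave an agreeing increase in that list.

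The factor *ETS1* and the stromelysin *MMP3*, which the study followed in treated MDA-MB-231 cells, were lower in both libraries. *ETS1* measured 176 and 177 CPM at 0 h and 84.1 and 80.4 CPM at 12 h. Both 12 h values lay close to each other and far below both 0 h values, and the log2 fold change was -1.10 ± 0.10 (edgeR adjusted p = 0.000427). *MMP3* measured 3.53 and 2.43 CPM at 0 h and 0.19 and 0.833 CPM at 12 h, a log2 fold change of -2.53 ± 0.65 (edgeR adjusted p = 0.0445). The log2 fold change of *MMP3* was -3.95 in replicate 1 and -1.84 in replicate 2, and all of its values rest on few counts. Removal of the length and GC trend took the difference between the libraries from -2.11 to -1.565.

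Of the caveolar genes, 3 fell in both libraries. *CAV1*, the main coat protein of caveolae, fell from 1040.4 and 1024 CPM to 565 and 506 CPM, a log2 fold change of -0.95 ± 0.11 (edgeR adjusted p = 0.00164). *CAVIN2* fell from 239 and 267 CPM to 83.2 and 74.9 CPM and *CAV2* from 105 and 92.3 CPM to 69.9 and 64.9 CPM, so 3 of the 7 caveolar genes tested agreed in falling and none agreed in rising, also at an unadjusted p under 0.05 or by DESeq2. *VIM* measured 1393 and 1313 CPM at 0 h and 1125 and 983 CPM at 12 h, which passed in each library and not over both as 1 group (edgeR adjusted p = 0.104), and with the length and GC trend removed it no longer passed in replicate 1 (-0.18, edgeR adjusted p = 0.104).

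Among the cytoskeletal genes the study names, the libraries often did not agree. *VCL*, which links integrins to actin, measured 453 and 438 CPM at 0 h and 610.4 and 357 CPM at 12 h, with a log2 fold change of 0.45 in replicate 1 (edgeR adjusted p = 8.12e-05) and -0.32 in replicate 2 (edgeR adjusted p = 0.0101). The GTPase *RAC1* measured 616 and 536 CPM and then 652 and 461 CPM, and *CDC42*, a GTPase of filopodia, 361 and 369 CPM and then 383 and 314 CPM. In these 3 genes replicate 1 at 12 h lay above and replicate 2 below the 0 h libraries, and the mean over both did not pass. With the length and GC trend removed, *CDC42* was at -0.40 in replicate 1 and -0.15 in replicate 2 on the log2 scale. It did not pass in replicate 2, so it did not agree. *RAC1* (0.53 and -0.23) and *VCL* (0.27 and -0.33) kept opposite signs. The actin crosslinker *ACTN4* passed in replicate 1 alone, at 852 and 846 CPM at 0 h and 1197 and 807 CPM at 12 h, and so did the formin *DIAPH2*, at 20.4 and 18.7 CPM and then 26.8 and 19.7 CPM. The filopodial motor *MYO10* agreed, at 137 and 134 CPM and then 114 and 112 CPM, although it did not pass over both libraries as 1 group (edgeR adjusted p = 0.121). Neither *PXN*, at 113 and 119.7 CPM and then 120.4 and 99.6 CPM, nor *SNAI1*, at 6.59 and 6.15 CPM and then 5.99 and 7.49 CPM, passed in either library. Removal of the length and GC trend took *DIAPH2* in replicate 1 from 0.46 to 0.09 on the log2 scale and left *ACTN4* there at 0.435. After that step *PXN* was at -0.12 in replicate 1 and -0.42 in replicate 2, and *SNAI1* at 0.57 and 0.09, so these results depended on it.

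**Figure D3:**
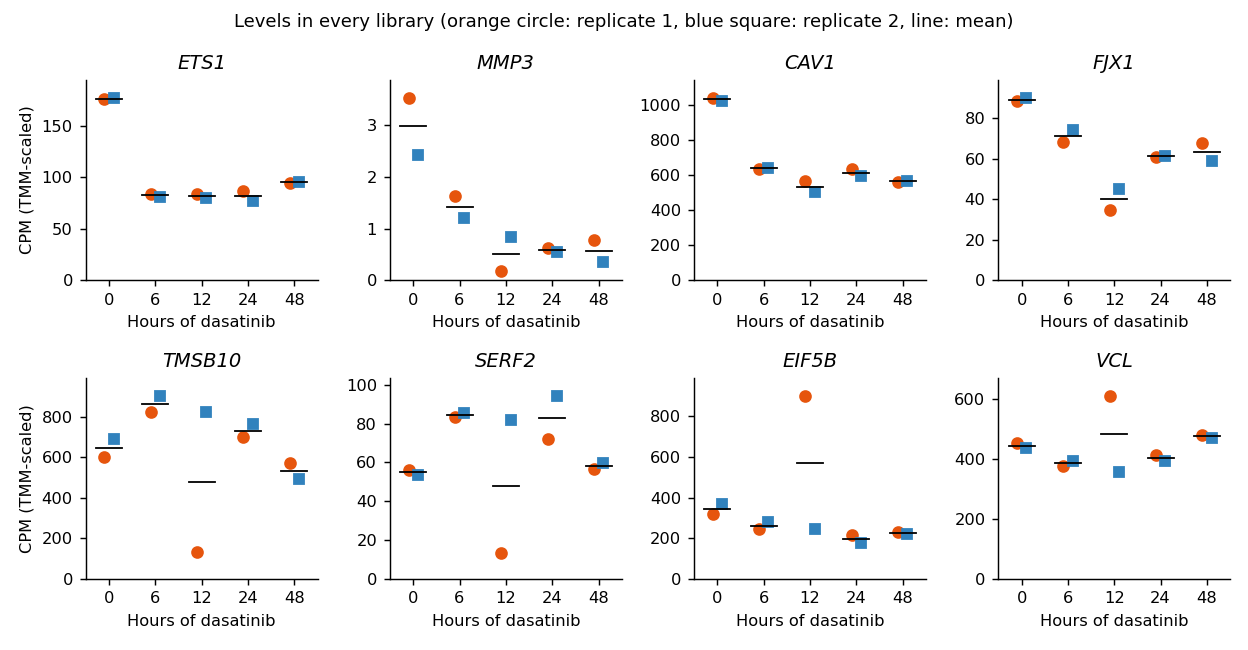
TMM-scaled CPM of 8 genes in all 10 libraries (orange circles replicate 1, blue squares replicate 2, black lines the mean of both) over 0, 6, 12, 24 and 48 h of dasatinib. *ETS1*, *MMP3*, *CAV1* and *FJX1* (top) were lower in both 12 h libraries than at 0 h, whereas replicate 1 at 12 h lies apart from every other library in *TMSB10*, *SERF2*, *EIF5B* and *VCL* (bottom).

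Other regulators of cell shape showed agreeing changes, several of them of unlike size in the 2 libraries. *RND3*, a small GTPase-like protein that reduces actomyosin contractility, fell from 86.5 and 85.4 CPM to 47.9 and 37.5 CPM, a log2 fold change of -1.01 ± 0.14 (edgeR adjusted p = 0.00332). The CDC42 effectors *CDC42EP1* and *CDC42EP3* fell as well, from 124 and 122 CPM to 58.4 and 80.0 CPM and from 264 and 273 CPM to 195 and 173 CPM. In the opposite direction moved the invadopodial scaffolds *SH3PXD2A*, from 99.6 and 114 CPM to 171 and 156 CPM, and *SH3PXD2B*, from 47.9 and 61.8 CPM to 129 and 85.1 CPM, and the collagen receptor subunit *ITGA2*, from 108 and 104 CPM to 210.2 and 140.2 CPM. On the log2 scale, replicate 1 changed more in *SH3PXD2B* (1.23 and 0.63), *ITGA2* (0.99 and 0.40) and *CDC42EP1* (-1.07 and -0.62). Replicate 2 changed more in *RND3* (-0.85 and -1.20). Of the drug's own kinase targets and their relatives, *EPHA2* fell from 470.4 and 475 CPM to 275 and 343 CPM, and the SRC-related kinase *FRK* and the collagen receptor kinase *DDR1* rose, *FRK* from 3.34 and 2.87 CPM to 7.28 and 6.13 CPM and *DDR1* from 11.7 and 12.98 CPM to 21.5 and 20.6 CPM.

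Collagens and matrix glycoproteins rose more often than they fell. Of 56 tested, 11 agreed in rising and 2 in falling. *LTBP1*, which stores latent TGF-beta in the matrix, rose from 55.4 and 53.5 CPM to 150.2 and 131 CPM, a log2 fold change of 1.37 ± 0.11 (edgeR adjusted p = 0.000207). *COL7A1* rose from 2.24 and 1.95 CPM to 6.66 and 5.32 CPM, and *COL15A1* from 0.334 and 0.505 CPM to 2.85 and 3.72 CPM. *CCDC80* fell from 51.8 and 49.9 CPM to 28.02 and 23.2 CPM. Genes of this list are long, with a median exonic length of 8.74 kb against 4.89 kb over all genes tested, and with the length and GC trend removed 6 agreed in rising and 6 in falling, so the balance of the list depended on that step.

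Of 38 matrix proteases and their inhibitors, 3 agreed in rising and 5 in falling, beside 4.94% and 5.25% of all genes, so the former share is near that of all genes. The plasminogen activator *PLAT* fell from 49.2 and 47.5 CPM to 20.9 and 29.4 CPM, a log2 fold change of -0.94 ± 0.18 (edgeR adjusted p = 0.013). The membrane protease *ADAM8* rose from 16.7 and 16.6 CPM to 32.4 and 48.5 CPM, *ADAMTS15* from 10.8 and 11.01 CPM to 20.6 and 21.1 CPM, and *MMP15* from 3.87 and 3.78 CPM to 8.85 and 9.64 CPM. Both 12 h libraries lay beyond both 0 h libraries in each of these 4 genes, which were chosen because they agreed. Over all genes tested, both 12 h libraries lay above both 0 h libraries in 22% and below them in 23.3%.

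Of 127 ribosome biogenesis factors tested, 64 agreed in falling and none agreed in rising, and 46 were lower over both libraries as 1 group, where 3.22% of all genes were. The median log2 fold change was -0.50 in replicate 1 and -0.43 in replicate 2. *NOLC1*, a nucleolar chaperone of small ribonucleoproteins, fell from 491 and 534 CPM to 266 and 286 CPM, a log2 fold change of -0.89 ± 0.12 (edgeR adjusted p = 0.00226). *RPF2*, which joins the 5S particle to the large subunit, fell from 90.3 and 89.2 CPM to 49.2 and 51.3 CPM, and *RRP15* from 75.0 and 74.8 CPM to 44.4 and 39.4 CPM. None of these 3 differed between the 12 h libraries beyond the threshold. With the length and GC trend removed 57 of the 127 agreed in falling. None agreed in rising at an unadjusted p under 0.05 or by DESeq2.

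Subunits of RNA polymerases I and III and tRNA synthetases fell in smaller numbers. Of 36 polymerase genes 7 agreed in falling and none agreed in rising, among them *POLR1E*, from 66.5 and 73.6 CPM to 36.6 and 40.9 CPM. Of 20 tRNA synthetases 5 agreed in falling and none in rising, such as *YARS1*, from 162 and 172 CPM to 96.5 and 121 CPM. At an unadjusted p under 0.05 in each library 1 polymerase gene and no tRNA synthetase agreed in rising, and by DESeq2 neither list had such a gene. Of 27 heat shock chaperones 6 agreed in falling and 1 in rising, the latter share near the 4.94% of all genes. *HSPD1* measured 1066 and 1149 CPM at 0 h and 749 and 836 CPM at 12 h, and *CCT2* 523 and 510.2 CPM and then 374 and 386 CPM. *DNAJB4* rose, from 48.6 and 51.9 CPM to 76.1 and 71.8 CPM.

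FOXO-type and mTORC1-restraining genes rose more often than they fell. Of 36 tested, 14 agreed in rising and 5 in falling, with a median log2 fold change of 0.73 in replicate 1 and 0.45 in replicate 2. *KLHL24* rose from 4.58 and 4.43 CPM to 20.7 and 13.3 CPM, a log2 fold change of 1.91 ± 0.23 (edgeR adjusted p = 0.00166), and the cyclin *CCNG2* from 32.2 and 33.4 CPM to 69.9 and 77.7 CPM. *MXD4*, an antagonist of MYC, rose from 39.3 and 33.6 CPM to 70.8 and 75.5 CPM. Among the falling members *CITED2*, a transcriptional coregulator, went from 144 and 127 CPM to 68.9 and 98.1 CPM. *GADD45B* was lower in each library, from 49.2 and 57.8 CPM to 9.32 and 31.6 CPM, but by very different amounts (-2.52 and -0.76 on the log2 scale), and it did not pass over both as 1 group (edgeR adjusted p = 0.0717).

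Of 46 interferon-stimulated genes tested, 24 agreed in falling and 1 in rising, and 15 were lower over both libraries as 1 group, with medians of -0.49 in replicate 1 and -0.47 in replicate 2. *OAS2*, a sensor of double-stranded RNA, fell from 119 and 115 CPM to 65.0 and 59.0 CPM, a log2 fold change of -0.91 ± 0.10 (edgeR adjusted p = 0.00123). The antiviral GTPases *MX1* and *MX2* fell from 67.9 and 70.0 CPM to 33.8 and 35.6 CPM and from 43.8 and 41.6 CPM to 18.3 and 21.6 CPM. The agreeing increase was that of *GBP2*, from 46.5 and 55.6 CPM to 89.5 and 113 CPM. None of the falls of these 3 genes differed between the 12 h libraries beyond the threshold. Chemokine and NF-kappaB genes gave 6 agreeing falls and 2 agreeing increases among 34, the latter share near the 4.94% of all genes. *CCL2* measured 82.7 and 79.8 CPM and then 35.4 and 50.2 CPM, and *IL11* 87.0 and 96.2 CPM and then 152 and 256 CPM.

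Genes of metabolism and stress changed in both directions. *STC1*, a secreted glycoprotein, rose from 22.1 and 24.8 CPM to 95.3 and 81.9 CPM, a log2 fold change of 1.92 ± 0.12 (edgeR adjusted p = 4.75e-05), while hexokinase 2 (*HK2*) fell from 99.5 and 99.1 CPM to 42.3 and 44.04 CPM, by 1.20 ± 0.11 on the log2 scale (edgeR adjusted p = 0.000427). The cystine carrier *SLC7A11* rose from 188 and 194 CPM to 405 and 299 CPM, and the leucine carrier *SLC7A5* from 366 and 377 CPM to 673 and 586 CPM. Of the p53 targets, *PLK2* fell from 60.8 and 59.3 CPM to 15.7 and 22.0 CPM and *AEN* from 65.4 and 69.5 CPM to 24.4 and 32.8 CPM, and *TP53INP1* rose from 2.43 and 2.78 CPM to 6.61 and 5.98 CPM. *GDF15* rose from 2.75 and 4.36 CPM to 5.42 and 24.3 CPM, a fold that rested on replicate 2. The guidance ligand *SEMA3F* rose from 6.44 and 5.73 CPM to 20.3 and 15.7 CPM, and its relative *SEMA3E* fell from 22.2 and 25.1 CPM to 12.96 and 12.8 CPM.

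**Figure D4:**
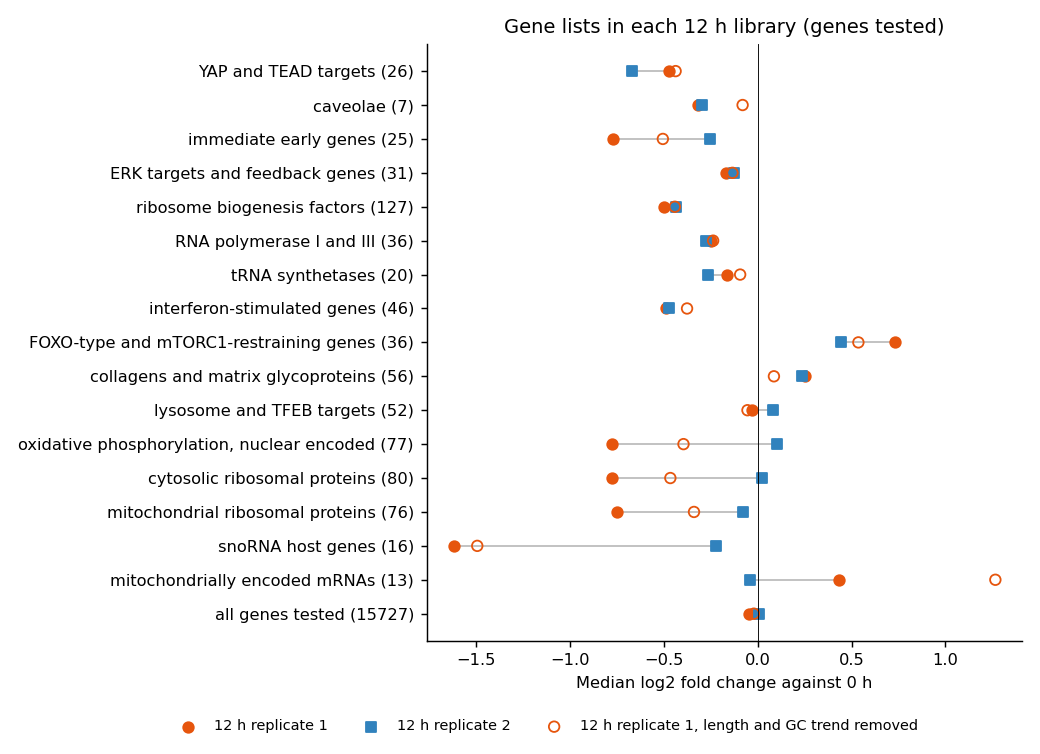
Median log2 fold change against 0 h of 16 gene lists and of all genes tested (number of genes in brackets) in 12 h replicate 1 (filled orange), 12 h replicate 2 (blue squares) and replicate 1 after removal of the trend with gene length and GC content (open orange). The medians of the ribosome biogenesis, interferon and ERK lists lie close together in both libraries, whereas those of oxidative phosphorylation and ribosomal proteins lie at -0.78 in replicate 1 and near 0 in replicate 2.

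The 2 libraries of 12 h differed from each other in 6088 genes (38.7%), of which 2603 were higher in replicate 1 (16.6%) and 3485 were lower (22.2%) by edgeR's quasi-likelihood test. This contrast compares 2 libraries and not a condition. Genes of energy metabolism and translation stood out among those lower in replicate 1. Of 77 nuclear-encoded subunits of oxidative phosphorylation, 62 were lower than at 0 h in replicate 1 and 2 in replicate 2, with medians of -0.78 and 0.10. Of 80 cytosolic ribosomal protein genes, 76 were lower in replicate 1 and 1 in replicate 2, with medians of -0.78 and 0.025. Their mRNAs are near-identical to many processed pseudogenes, so their single values are uncertain. *UQCRFS1*, a subunit of complex III, and *RPL22* were the only members of these 2 lists that agreed in falling, *UQCRFS1* at 168 and 156 CPM and then 90.8 and 133 CPM, and *RPL22* at 133 and 134 CPM and then 68.1 and 103 CPM. With the length and GC trend removed, *UQCRFS1* no longer passed in replicate 2 (edgeR adjusted p = 0.124).

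All 16 snoRNA host genes tested were lower than at 0 h in replicate 1, with a median of -1.62, and 4 of them were lower in replicate 2, with a median of -0.23. *SNHG15* went from 44.6 and 51.0 CPM to 12.0 and 26.5 CPM. Mitochondrially encoded mRNAs went the other way, with 8 of 13 higher in replicate 1, none called in replicate 2 (1 at an unadjusted p under 0.05, none by DESeq2), and medians of 0.43 and -0.04. Replication and mitosis genes were called in both directions in replicate 1, with 11 higher and 31 lower among 65 replication genes and 29 higher and 23 lower among 78 mitosis genes, beside 21.5% higher and 26.5% lower over all genes in that library. In replicate 2 these counts were 1 and 9 for replication and 4 and 5 for mitosis. Agreement was limited there to 9 falls in replication, such as *SLBP*, which binds histone mRNA, from 136 and 131 CPM to 71.3 and 96.6 CPM, and to *INCENP* (higher) and *BUB3* (lower) in mitosis. With the length and GC trend removed, more mitosis genes agreed, mostly in rising, and fewer replication genes agreed in falling. The extent of agreement in these 2 lists thus depended on that step. The median of the mitosis list went from 0.097 to 0.225 in replicate 1 and from 0.059 to 0.095 in replicate 2.

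Gene length moved with the difference between the libraries. Exonic lengths were recovered from the deposited counts and TPM values, and genes whose log2 CPM averaged at least 2 were divided into 10 bins of equal size. In the bin of the shortest genes (0.085 to 2.31 kb) the median of replicate 1 minus replicate 2 was -0.73 on the log2 scale, and 73.8% of the genes differed between the libraries. In that of the longest (11.3 to 91.7 kb) the median was 0.42, and 60.3% of the genes differed. Replicate 2 minus 0 h showed no such course, with medians of -0.06 to 0.04 over the bins, nor did the difference between the 0 h libraries, at -0.01 to 0.02. By GC content, the median of replicate 1 minus replicate 2 went from 0.34 in the lowest bin (30.7 to 38.1%) to -0.36 in the highest (61.6 to 76.0%). Against 0 h, replicate 1 went from 0.16 to -0.17 over the same bins and replicate 2 from -0.15 to 0.18, so each library had a course with GC content, of opposite direction and similar size. The part of RNA quality or library preparation in these differences was not tested.

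**Figure D5:**
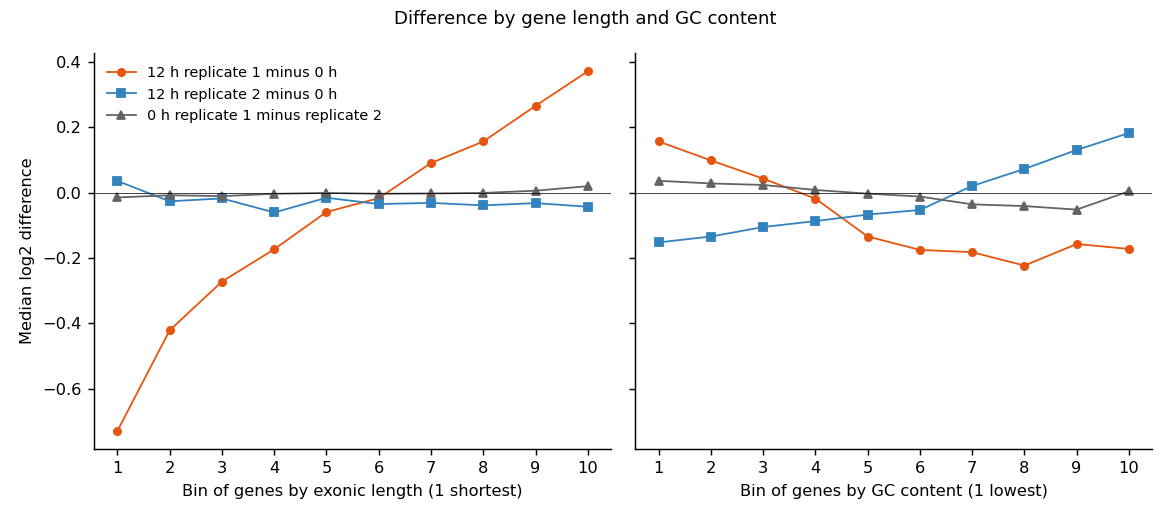
Median log2 difference in 10 bins of the genes ordered by exonic length (left) and by GC content (right), for 12 h replicate 1 minus 0 h (orange), 12 h replicate 2 minus 0 h (blue) and 0 h replicate 1 minus 0 h replicate 2 (grey). The orange line climbs with length from -0.73 to 0.37 while the other two stay between -0.06 and 0.04.

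The classes of calls differed in length accordingly. Genes called in replicate 1 alone had a median length of 7.52 kb where higher (2496 genes) and 3.43 kb where lower (3189 genes), beside 4.89 kb over all genes tested. Genes that agreed had medians of 6.85 kb where higher and 4.5 kb where lower, and median GC contents of 54.6% and 45.9%. With the length and GC trend of each library removed, 766 genes agreed in rising and 982 in falling, and 573 of the 777 and 598 of the 825 agreeing genes agreed again (73.1%). By DESeq2 with the same groups, 96.4% of the agreeing genes that it tested did so. After removal of the trend the median in replicate 1 was -0.40 for oxidative phosphorylation, -0.47 for cytosolic ribosomal proteins and -1.50 for snoRNA host genes, and that of the mitochondrially encoded mRNAs was 1.27, so the gap from 0 h narrowed for the lists of oxidative phosphorylation and ribosomal proteins, moved little for the snoRNA host genes and widened for the mitochondrial mRNAs.

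The 8 genes highest in replicate 1 relative to replicate 2 were *CDH4*, *EIF5B*, *MALAT1*, *NFATC3*, *PCSK7*, *POU2F1*, *MARF1* and *ND6*. *EIF5B*, a translation initiation factor, measured 319.5 and 370.3 CPM at 0 h and 899 and 244 CPM at 12 h. *MALAT1*, a nuclear-retained long noncoding RNA, measured 50.2 and 59.0 CPM and then 298 and 89.8 CPM, so both libraries were higher than 0 h, by 2.45 and 0.72 on the log2 scale. *NEAT1*, another nuclear RNA, was higher in both without a difference between them that passed, at 134 and 154 CPM and then 283 and 340.0 CPM, but with the length and GC trend removed it did not pass in replicate 1 (edgeR adjusted p = 0.0625) and the libraries differed (edgeR adjusted p = 0.0243). *ND6* lies on the opposite mitochondrial strand to most genes there, and since the strand setting of the counting is not stated, its 326 and 339 CPM at 0 h and 1133 and 401 CPM at 12 h may hold reads of neighbouring transcripts.

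The 8 lowest in replicate 1 were *CHCHD10*, *TMSB10*, *COX6A1*, *SERF2*, *C4orf48*, *POLR2L*, *PHLDA2* and *MDK*, of which *SERF2* alone had an exonic length above the median of all genes. *TMSB10*, an actin monomer-binding peptide, measured 599 and 691 CPM at 0 h and 133 and 821 CPM at 12 h. *POLR2L*, a small polymerase subunit, measured 120.2 and 132 CPM and then 27.4 and 153 CPM. *PHLDA2* measured 63.0 and 68.8 CPM and then 16.8 and 93.4 CPM. In each of the 8 replicate 1 at 12 h was the lowest of the 4 libraries and replicate 2 was the highest. None passed over both libraries as 1 group.

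The 255 genes with opposite calls were 154 lower in replicate 1 and higher in replicate 2, with a median length of 2.84 kb and a median GC content of 57.7%, and 101 with the reverse pattern, at 9.66 kb and 40.6%. For each pattern the 5 genes whose smaller change was largest are given, and those of the first pattern had low counts. *PLEKHB1* measured 2.05 and 1.67 CPM at 0 h and 0.19 and 3.92 CPM at 12 h, *FBXO2* 1.96 and 1.79 CPM and then 0.618 and 3.90 CPM, and *MIR3681HG* 2.58 and 2.27 CPM and then 1.14 and 5.17 CPM. *AQP1* and *LINC00989* had no count in replicate 1 and stayed under 1 CPM in the other 3 libraries, so no fold is given for them. On the reverse side *UVSSA* measured 12.2 and 12.3 CPM and then 21.5 and 8.02 CPM, *LOC122539214* 6.09 and 5.73 CPM and then 11.8 and 2.37 CPM, and *NALF1*, *BMP2K* and *CACNB4* lay at 15.5, 16.6 and 17.4 CPM in replicate 1 and 6.9, 6.84 and 7.62 CPM in replicate 2. With the length and GC trend removed, 46 of the 255 were still called in opposite directions.

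Few genes set the 12 h group apart from 6 h, and more set it apart from 24 h. Against 6 h, 79 genes were higher (0.502%) and 35 lower (0.223%), and against 24 h, 653 were higher (4.15%) and 539 lower (3.43%), by edgeR's quasi-likelihood test. Against 0 h, 195 genes were higher (1.24%) and 235 lower (1.49%) at 6 h, and 1531 were higher (9.73%) and 1612 lower (10.2%) at 24 h. Ribosome biogenesis factors were lower in 3 cases at 6 h and 87 at 24 h, of 127, and interferon-stimulated genes in 24 and 1, of 46. *FJX1*, a YAP target, was the one gene with both 12 h libraries below all 4 libraries of 6 h and 24 h that passed against each of these times, and none lay above them in the same way. At an unadjusted p under 0.05 there were 212 genes below and 249 above, and by DESeq2 with adjustment 24 and 52. The call on *FJX1* was lost when any library of 0, 6, 24 or 48 h was left out or at a threshold of 0.01, and without 12 h replicate 1 or 2 the count of such genes was 41 or 4808. *FJX1* measured 88.3 and 90.1 CPM at 0 h, 68.2 and 74.5 CPM at 6 h, 34.8 and 45.2 CPM at 12 h and 61.1 and 61.5 CPM at 24 h. The difference was -0.83 on the log2 scale from 6 h (edgeR adjusted p = 0.0413) and -0.62 from 24 h (edgeR adjusted p = 0.0261). By comparison *ETS1* lay at 84.4 and 80.9 CPM at 6 h and 86.5 and 77.3 CPM at 24 h, and its 12 h level passed against neither time (edgeR adjusted p = 0.981 and 0.975).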

How the data were processed

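RNA from MDA-MB-231 cells was sequenced in 10 libraries, 2 at each of 0, 6, 12, 24 and 48 h of dasatinib. Per the submitters' processing notes, FastQC, MultiQC and Trim Galore were run on the reads, STAR 2.5.2b aligned them to hg38, and featureCounts counted them per gene. The authors deposited raw counts and TPM values for 36687 gene symbols. The annotation, the strand setting and the step from counts to TPM are not given in the sources used here, so reads of overlapping or antisense genes and of near-identical copies (histone and ribosomal protein genes) could not be separated. The deposited TPM values served only to recover gene lengths, and GC content was taken from GENCODE transcripts.

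Totals of 40942913 to 49133774 counts per library limit the precision of genes with few counts. Tests were run on the deposited counts with edgeR 4.0.16 in R 4.3.3 (low-count filter by group leaving 15727 genes, TMM scaling, robust quasi-likelihood test, Benjamini-Hochberg adjustment over all genes tested, threshold 0.05). One fit held 5 time groups over all 10 libraries. A second had 6 groups, with each 12 h library alone and its spread taken from the other groups. Standard errors were obtained from the fold change and its F statistic, log2 CPM used a prior count of 1, and the trend with log2 length and GC content was removed, where stated, by splines of 5 degrees of freedom. The tests were checked on simulated counts. Promoters are from RefSeq on GRCh38.p14.

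The genes, lists and tests were chosen with earlier results of these data known. Named genes are, first, the 10 largest changes a direction among agreeing genes that also passed over both libraries and averaged a log2 CPM of 2 or more. Added to them are up to 3 agreeing members of each list and direction by adjusted p, the 8 largest differences a direction between the 12 h libraries at an average of 4 or more, up to 5 opposite calls of each pattern, up to 6 genes a direction beyond both 6 h and 24 h, and 12 genes the study names. Some genes that this rule names are not reported here. Alternatives were no filter, other scalings, the replicate number as a block, a threshold of 0.01, DESeq2 1.42.0, the 4 libraries alone and each library left out in turn.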

Additional observations from a re-analysis of the deposited data

Results flagged for a closer look

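Differences between the change at 12 h and that at a neighbouring time were tested directly, since the contrast of 2 treated times is the difference of their changes from the shared 0 h group. Between 12 h and 6 h 114 genes differed, and between 12 h and 24 h 1192 genes differed (edgeR's quasi-likelihood test, adjusted p under 0.05). The 12 h replicate that stands apart enters both counts, and its part in them was not tested.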

How the results depend on the processing

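The counts of agreeing genes (777 higher, 825 lower) stayed within 1.5 times of these values under the alternatives run, except that a threshold of 0.01 gave 441 and 476, with 58 opposite calls (a count whose alternatives were added after it was seen), 0 genes beyond both 6 h and 24 h, and 181 genes higher and 147 lower over both libraries as 1 group. With one library left out at a time the agreeing counts ran from 609 to 790 and from 659 to 854, opposite calls from 114 to 264 (114 without 0 h replicate 1), genes differing between the 12 h libraries from 5825 to 6237, and genes beyond both neighbouring times from 0 to 4808, with 41 when 12 h replicate 1 was left out, 4808 when 12 h replicate 2 was, and 0 for every other library (edgeR).

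The counts over both libraries as 1 group (618 and 506) depended on the fit. They ran from 92 to 3386 higher and from 77 to 4173 lower with one library left out, with 92 and 77 in the absence of 0 h replicate 1, 111 and 88 in that of 0 h replicate 2, and 305 to 334 and 232 to 259 in that of any library of 6, 24 or 48 h. No filter on low counts gave 1186 and 1150, with 226 genes beyond both neighbouring times. With the 12 h libraries as groups of their own their mean gave 2415 and 3441. DESeq2 gave 1176 and 896 on all libraries and 174 and 124 on 0 h and 12 h alone, where edgeR called 0 and 0 (939 and 676 at an unadjusted p under 0.05). Removal of the length and GC trend gave 978 lower genes, 115 opposite calls and 29 genes beyond both times.

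Replicate numbers did not pair the samples, with correlations of same-numbered deviations of -0.03 to 0.09 between groups. With the replicate number as a block, 557 genes were higher and 473 lower, 679 and 686 agreed, and 149 calls were opposite. The block with the trend removed gave 995 lower genes, 78 opposite calls, 3090 genes differing between the 12 h libraries and 42 beyond both times.

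Of the named genes 6 changed sign, none of which passed over both libraries. With the trend removed *RAC1* (-0.05 on the log2 scale) was at 0.20, and with the block as well it was at 0.18 and *VCL* (0.12) at -0.012. With one library left out, *RAC1* ran from -0.32 to 0.17 (0.042 without 0 h replicate 1), *VCL* from -0.31 to 0.45, *ACTN4* (0.24) from -0.067 to 0.49, *CDC42* (-0.07) from -0.21 to 0.063, *PXN* (-0.08) from -0.22 to 0.044 and *SNAI1* (0.08) from -0.094 to 0.24, and in each case a 12 h library was the one left out at both ends. The cause of these shifts was not tested. Depth limits genes of few counts, such as *MMP3* and *COL15A1*.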

Other observations

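Some groups with small numbers of agreeing changes were not described above. Over all genes tested, 4.94% agreed in rising and 5.25% in falling. Of 52 lysosomal genes and TFEB targets 4 agreed in rising and none in falling (edgeR's quasi-likelihood test in each library, adjusted p under 0.05), and none agreed in falling at an unadjusted p under 0.05 or by DESeq2. The autophagy receptor *SQSTM1* rose from 221 and 235 CPM to 385 and 435 CPM and the lysosomal transferase *HGSNAT* from 40.6 and 36.0 CPM to 65.6 and 55.3 CPM. The log2 fold change of *SQSTM1* was 0.85 ± 0.12 (SE). The list as a whole was not alike in the 2 libraries, with 13 members higher and 19 lower in replicate 1 and 14 higher and none lower in replicate 2 (3 lower at an unadjusted p under 0.05, 2 by DESeq2).

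Of 38 genes of lipid transport and storage 7 agreed in rising and 3 in falling, beside 4.94% and 5.25% of all genes. The receptors *LRP1* and *LRP8* rose from 22.6 and 21.8 CPM to 51.0 and 36.0 CPM and from 34.3 and 35.2 CPM to 76.4 and 56.5 CPM, and the flippase *ATP8A1* from 1.93 and 4.31 CPM to 13.3 and 10.6 CPM. *MFSD2A*, a lysolipid carrier, fell from 20.8 and 20.1 CPM to 10.7 and 8.76 CPM. Of 45 axon guidance genes 4 agreed in rising and 7 in falling, among them *PLXND1*, a semaphorin receptor, up from 68.2 and 65.6 CPM to 148 and 118 CPM, and *RGMB* down from 39.8 and 30.4 CPM to 19.1 and 17.7 CPM.

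Of 16 luminal and milk markers 3 agreed in rising and 2 in falling, beside 4.94% and 5.25% of all genes. The secretory factor *SPDEF* rose from 8.16 and 9.82 CPM to 14.8 and 17.97 CPM and *ERBB3* from 3.99 and 3.53 CPM to 7.04 and 6.68 CPM, while *KRT19* fell from 158 and 164 CPM to 92.0 and 108 CPM. The tight junction gene *CLDN1* fell from 11.7 and 9.73 CPM to 4.28 and 3.24 CPM. Both 12 h libraries lay beyond both 0 h libraries in each of these 4 genes, which were chosen because they agreed. Over all genes tested this was so for 22% (above) and 23.3% (below).

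In the remaining lists the counts of agreeing genes were small, but several were larger shares than over all genes. Of all genes, 4.94% agreed in rising and 5.25% in falling. Focal adhesion and invadopodia genes gave 4 agreeing increases among 30 and no agreeing fall (1 at an unadjusted p under 0.05, 0 by DESeq2). With the length and GC trend removed, as many of them agreed in falling as in rising, so this balance depended on that step. Their median log2 fold change in replicate 1 went from 0.212 to 0.058. Genes of the stress response and amino acid supply gave 4 increases and 6 falls among 32, hypoxia and glycolysis 5 and 3 among 34, and fatty acid synthesis 2 and 3 among 22. Of 25 genes of cholesterol synthesis and uptake none agreed (2 in falling and 0 in rising at an unadjusted p under 0.05, 0 by DESeq2). Of 76 mitochondrial ribosomal protein genes 5 agreed in falling, a share near the 5.25% of all genes, and of 11 basal B markers 3 did.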
